A study of Mus musculus with 6 samples.

Results

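The interferon regulatory factors (IRFs) are transcription factors that share a DNA-binding domain and bind the interferon-stimulated response element (ISRE). 8 of them, *Irf1*, *Irf2*, *Irf3*, *Irf4*, *Irf5*, *Irf7*, *Irf8* and *Irf9*, were taken by gene symbol from the 55335 genes of the deposited expression table. They were followed in bone marrow-derived macrophages (BMDMs, differentiated in culture with macrophage colony-stimulating factor at 25 ng/ml for 7 days). The BMDMs came from *Cd177* WT mice and were cultured for 24 h in direct contact with neutrophils, which had been isolated from the spinal cord lesion 3 days after injury (3 dpi) by magnetic sorting. The neutrophil donors were *Cd177* WT mice for 3 libraries and *Cd177* KO mice for 3 libraries. All mice were adult male C57BL/6 animals, and every group carried the injury in its neutrophil donors, so neither an uninjured donor nor BMDMs alone stand beside these 6 libraries. After co-culture, the Ly6G-negative fraction was sorted and its RNA sequenced. The comparison asks how the IRF transcripts of macrophages differ with the *Cd177* genotype of the neutrophils they met.

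IRF3 and IRF7 lie dormant in the cytoplasm until kinases below RNA and DNA sensors or Toll-like receptors phosphorylate them, and they then switch on type I interferons and their early targets. IRF9 is the DNA-binding subunit of ISGF3, the complex that carries the signal of the interferon receptor to ISREs. *Irf1* and *Irf7* are themselves interferon-responsive genes, as is *Irf9*, whereas *Irf3*, *Irf5* and *Irf8* are held to be expressed constitutively in macrophages.

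The values are FPKM (sequenced fragments per kilobase of a transcript, relative to all fragments of the library), which can be compared between genes because they are taken per length. *Cd177* itself was at 0.544, 0.309 and 0.521 FPKM in WT replicates 1, 2 and 3, and at 1.79, 1.84 and 2.28 FPKM in KO replicates 1, 2 and 3. The transcript was thus higher in the KO-labelled libraries (adjusted p = 0.000827 with limma). It met the filter for testing, an average of 0.5 FPKM or more over the 6 libraries, only through those libraries. A gene that does so had to differ, so this p-value gives no support. The deletion lay in the neutrophils and not in the BMDMs. If neutrophil RNA was carried over and the deleted allele left no counted transcript, the higher level goes against the labels. Neither condition was tested. The libraries are therefore called by their labels throughout, and every direction below rests on those labels. All 9 tested neutrophil markers were called higher under the label KO (adjusted p under 0.05, limma), beside 27.1% of all tested genes. In 7 of them both groups were at the filter's level. The summed level of the 12-gene list was 162 to 228 FPKM in the WT-labelled libraries and 517 to 529 FPKM in the KO-labelled ones. *Ly6g*, which encodes the antigen of the gate, was listed at 0 in the 3 WT-labelled libraries and at 0.403 to 0.660 FPKM in the KO-labelled ones. The macrophage markers *Csf1r*, *Cd68* and *Adgre1* were at 218 to 587 FPKM in every library. Of the 8 listed macrophage markers, 2 were called higher (*Adgre1* and *Mertk*) and 1 lower, beside 27.1% and 10.5% of all tested genes. The lower 1 was *Fcgr1*, with a mean of 121 FPKM in the WT-labelled libraries and 33.8 FPKM in the KO-labelled ones. Replicate 3 correlated least with the other libraries of its group in both groups. In bulk RNA, fewer cells of one type and less RNA per cell cannot be told apart, and nothing in the labels says that replicates came from separate cultures or animals, so p-values measure the spread between these libraries, which may be technical.

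The stretches directly upstream of 4 of the genes are shown because these 4 cover the patterns described below, a large fall (*Irf7*), a moderate fall (*Irf1*), a level that moved in 1 library (*Irf8*) and a near-constant level (*Irf2*). They are taken from RefSeq (GRCm38.p6), where all 8 genes had an entry, and run 5′ to 3′ on the strand of the gene up to the more upstream of the RefSeq and GENCODE start sites. Capitals mark matches to 1 of 3 motifs searched on both strands, the ISRE core GAAANNGAAA, the GAS element TTCNNNGAA bound by STAT dimers, and the NF-kB consensus. *Irf1* at chr11:53769764-53770013 (plus strand), *Irf2* at chr8:46739495-46739731 (plus strand), *Irf7* at chr7:141266482-141266674 (minus strand) and *Irf8* at chr8:120736108-120736357 (plus strand) read as follows.
Irf1: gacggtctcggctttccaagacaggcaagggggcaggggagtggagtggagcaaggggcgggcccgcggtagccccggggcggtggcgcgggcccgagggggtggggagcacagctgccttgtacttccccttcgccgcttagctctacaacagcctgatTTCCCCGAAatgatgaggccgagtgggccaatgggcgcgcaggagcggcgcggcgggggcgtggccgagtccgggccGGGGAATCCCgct
Irf2: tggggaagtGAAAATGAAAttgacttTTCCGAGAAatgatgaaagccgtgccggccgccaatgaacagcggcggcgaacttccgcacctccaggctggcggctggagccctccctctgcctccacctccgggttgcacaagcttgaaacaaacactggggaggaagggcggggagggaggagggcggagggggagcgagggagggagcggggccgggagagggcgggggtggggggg
Irf7: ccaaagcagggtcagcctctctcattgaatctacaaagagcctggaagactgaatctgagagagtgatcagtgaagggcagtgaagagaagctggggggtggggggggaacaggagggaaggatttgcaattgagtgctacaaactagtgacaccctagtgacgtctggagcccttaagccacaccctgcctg
Irf8: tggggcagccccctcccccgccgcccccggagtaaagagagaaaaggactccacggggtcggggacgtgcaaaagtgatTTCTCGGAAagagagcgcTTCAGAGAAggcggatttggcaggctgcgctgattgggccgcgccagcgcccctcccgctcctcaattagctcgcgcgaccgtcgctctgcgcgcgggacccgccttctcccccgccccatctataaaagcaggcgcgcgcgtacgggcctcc

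The *Irf1* stretch holds a GAS match, TTCCCCGAA, 90 to 82 bases before the RefSeq start, and an NF-kB consensus match, GGGGAATCCC, 13 to 4 bases before it. In *Irf8*, a pair of GAS matches, TTCTCGGAA and TTCAGAGAA, lies 171 to 163 and 153 to 145 bases before the start. *Irf2* has an ISRE match, GAAAATGAAA, 241 to 232 bases before the start and a GAS match, TTCCGAGAA, 224 to 216 bases before it. It also has an NF-kB consensus match 17 to 8 bases before the RefSeq start, which runs past the end of the printed stretch. No match to these letters was found in the windows of *Irf3*, *Irf4*, *Irf5*, *Irf7* and *Irf9*, which cover 250 bases before to 50 bases after the RefSeq start. Of 32851 windows of this length, 3.443% held an ISRE match, 8.298% a GAS match and 4.505% an NF-kB consensus match, and a match is a run of letters rather than a measured binding site.

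Of the 8 genes, 7 passed the filter, an average level over the 6 libraries of 0.5 FPKM or more, and each of the 7 was at 2.19 FPKM or more in every library, so none passed through 1 group alone. *Irf1*, *Irf7* and *Irf9* were lower in the KO-labelled libraries at an adjusted p under 0.05 (limma on log2(FPKM + 0.5), Benjamini-Hochberg over 13367 genes), against 10.5% of all tested genes that were lower. No IRF gene was higher, against 27.1% of all tested genes, and 0 of the 7 were higher at an unadjusted p under 0.05. *Irf1* and *Irf7* also passed the threshold of the study, a fold change above 2 with an unadjusted p under 0.05, as 4.43% of all tested genes did in the same direction. No overlap between the 2 groups of libraries was seen for 4 of the 7 tested genes, against 51.9% of all tested genes in either direction. The log2 fold changes of the 7 genes (labelled KO against labelled WT) had a median of -0.27, while the median over all tested genes was 0.19.

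**Figure D1:**
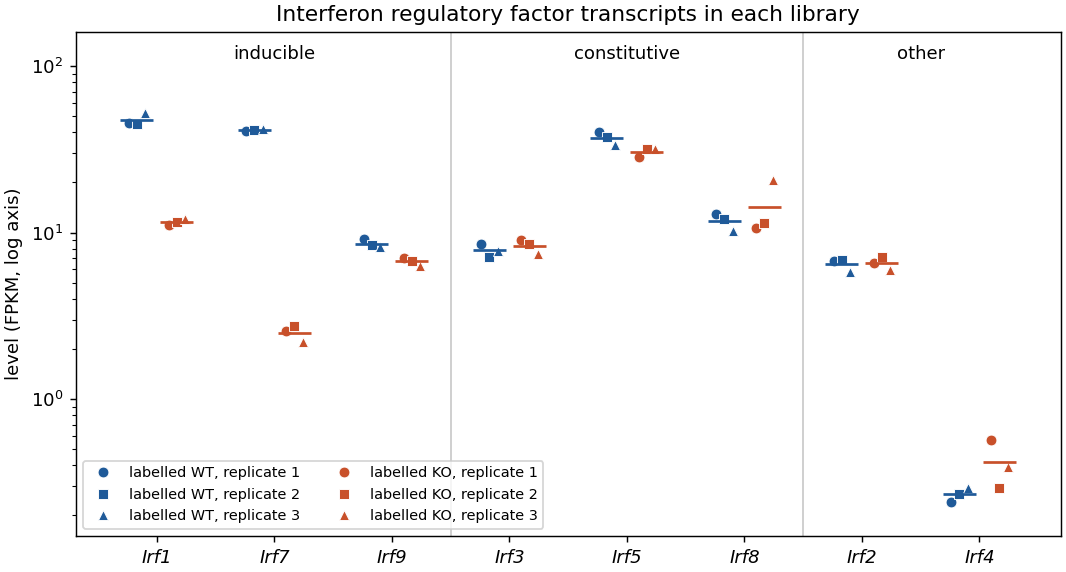
Level of each of the 8 IRF transcripts (FPKM, log axis) in the 6 libraries, with labelled WT in blue, labelled KO in red, a marker shape for each replicate and a line at the group mean. *Irf7* dropped from 40.5 to 41.9 FPKM in the WT-labelled libraries to 2.19 to 2.74 FPKM in the KO-labelled ones, *Irf1* from 44.9 to 52.4 to 11.1 to 12.0 FPKM, and *Irf8* of KO replicate 3 stands above the other 5 libraries at 20.7 FPKM.

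*Irf7* (ENSMUSG00000025498, chr7:141262706-141266481 on GRCm38, minus strand), known as the main amplifier of type I interferon production, changed most among the IRF genes. It was at 40.5, 41.6 and 41.9 FPKM in WT replicates 1, 2 and 3 and at 2.55, 2.74 and 2.19 FPKM in KO replicates 1, 2 and 3. All 3 KO-labelled libraries were far below all 3 labelled WT, and the WT libraries lay close together with a coefficient of variation of 1.69%. The mean fell from 41.3 ± 0.700 to 2.49 ± 0.280 FPKM (SD, n = 3 each), a 16.6-fold difference. On the log2(FPKM + 0.5) scale, which understates the change of low genes, the difference was -3.81 ± 0.096 (SE, adjusted p = 1.86e-06, limma). Only 42 of the 13367 tested genes fell further. The gene shares 45 bases with *Phrf1* on the opposite strand, and *Phrf1* was at 3.11 to 5.21 FPKM over the 6 libraries, with overlapping groups.

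*Irf1* (ENSMUSG00000018899, chr11:53770014-53778374, plus strand) encodes the founding member of the family, an activator induced by interferon-gamma that drives antigen processing and nitric oxide genes. Its transcript was at 45.5, 44.9 and 52.4 FPKM in WT replicates 1, 2 and 3 and at 11.1, 11.6 and 12.0 FPKM in KO replicates 1, 2 and 3. The groups were well apart, with the highest value in WT replicate 3 and little spread among the KO-labelled libraries. The mean fell from 47.6 ± 4.13 to 11.6 ± 0.434 FPKM (SD, n = 3 each), a 4.11-fold difference, and the log2 fold change was -1.99 ± 0.091 (SE, adjusted p = 1.44e-05, limma). Further falls were seen in 196 tested genes. The opposite-strand gene *Gm17334* shares exonic bases with *Irf1* and was at 1.33 FPKM or less in every library. The GAS and NF-kB consensus letters shown above lie directly upstream of this gene, while the *Irf7* stretch holds none of the letters searched.

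*Irf9* (ENSMUSG00000002325, chr14:55603571-55610030, plus strand), the gene of that ISGF3 subunit, fell by far less. It was at 9.09, 8.41 and 8.22 FPKM in WT replicates 1, 2 and 3 and at 7.07, 6.79 and 6.30 FPKM in KO replicates 1, 2 and 3. The groups did not overlap, although the lowest WT and the highest KO library were close. The mean fell from 8.57 ± 0.456 to 6.72 ± 0.387 FPKM (SD, n = 3 each), a 1.28-fold difference, and the log2 fold change was -0.33 ± 0.090 (SE, adjusted p = 0.0273, limma). This call was lost when 1 library was left out, with an adjusted p of 0.0917 without WT replicate 1, 0.0627 without WT replicate 2, 0.0638 without KO replicate 1, 0.0854 without KO replicate 2 and 0.083 without KO replicate 3 (limma). *Irf9* overlaps *Rnf31* by 123 bases on the same strand, and exons of both genes overlap there. *Rnf31* was at 8.57 to 9.15 FPKM in the WT-labelled libraries and at 4.42 to 5.26 FPKM in the KO-labelled ones. Reads in the shared bases could have been counted for either gene, so the small difference of *Irf9* is uncertain on this account too.

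Among the constitutive members, *Irf5* (ENSMUSG00000029771, chr6:29526625-29541871, plus strand), which acts below Toll-like receptors and is tied to inflammatory macrophages, was the most abundant. It was at 40.3, 37.5 and 33.4 FPKM in WT replicates 1, 2 and 3 and at 28.5, 31.9 and 31.6 FPKM in KO replicates 1, 2 and 3. The groups did not overlap, but WT replicate 3 came close to KO replicates 2 and 3. The log2 fold change was -0.27 ± 0.099 (SE, 95% interval -0.50 to -0.03), with an unadjusted p of 0.0316 and an adjusted p of 0.0740 (limma), so *Irf5* missed the threshold. It passed without WT replicate 3, at a log2 fold change of -0.34 with an adjusted p of 0.0182 (limma). It also passed with median-of-ratios scaling between libraries, at -0.49 with an adjusted p of 0.0085, and with upper-quartile scaling, at -0.35 with an adjusted p of 0.0299 (limma). *Tnpo3* overlaps its exons on the opposite strand and was at 4.56 to 5.76 FPKM in all 6 libraries.

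*Irf3* (ENSMUSG00000003184, chr7:44997648-45002848, plus strand), the first responder to viral nucleic acid, was at 8.49, 7.16 and 7.80 FPKM in WT replicates 1, 2 and 3 and at 9.02, 8.52 and 7.47 FPKM in KO replicates 1, 2 and 3. The groups overlapped. The log2 fold change was 0.09 with a 95% interval of -0.17 to 0.35 (adjusted p = 0.569, limma), and its sign turned with median-of-ratios scaling (-0.13) and quantile normalization (-0.05). *Bcl2l12* shares exonic bases with *Irf3* on the opposite strand and was at 2.77 to 3.17 FPKM in the WT-labelled libraries and at 3.79 to 4.73 FPKM in the KO-labelled ones.

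*Irf8* (ENSMUSG00000041515, chr8:120736358-120756694, plus strand), which with PU.1 shapes the monocyte and macrophage lineage, varied most of the 7 tested genes within a group. It was at 13.0, 12.0 and 10.3 FPKM in WT replicates 1, 2 and 3 and at 10.7, 11.4 and 20.7 FPKM in KO replicates 1, 2 and 3. KO replicate 3 was at 1.88 times the mean of the other KO-labelled libraries, and without it the groups overlapped closely. Its gap to the next KO-labelled library was 0.83 on the log2(FPKM + 0.5) scale, and 88 of the 13367 tested genes (0.658%) had a gap at least as large. The log2 fold change was 0.21 with a 95% interval of -0.38 to 0.80 (adjusted p = 0.538, limma), and -0.08 with an interval of -0.40 to 0.24 without KO replicate 3. With median-of-ratios scaling it was -0.01. The intervals include differences larger than that of *Irf9*, so these data do not show that *Irf8* was held constant.

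*Irf2* (ENSMUSG00000031627, chr8:46739732-46847458, plus strand), known as an antagonist of IRF1 at shared elements, was at 6.76, 6.80 and 5.78 FPKM in WT replicates 1, 2 and 3 and at 6.56, 7.17 and 5.97 FPKM in KO replicates 1, 2 and 3. The groups overlapped, with replicate 3 lowest in both. The log2 fold change was 0.02 with a 95% interval of -0.24 to 0.29 (adjusted p = 0.879, limma), and it was negative with median-of-ratios scaling (-0.19), quantile normalization (-0.14) and upper-quartile scaling (-0.06).

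*Irf4* (ENSMUSG00000021356, chr13:30749226-30766976, plus strand), a factor of lymphocytes and of alternatively activated macrophages, was the lowest of the 8 transcripts under both labels. It was at 0.240, 0.270 and 0.289 FPKM in WT replicates 1, 2 and 3 and at 0.566, 0.292 and 0.389 FPKM in KO replicates 1, 2 and 3. The groups touched without overlapping, and the gene did not pass the filter. With no filter, its log2 fold change was 0.25 with an adjusted p of 0.313 (limma). In the B-lineage list *Cd79b* and *Ebf1* rose, as did *Ighm*, which passed the filter only through the KO-labelled libraries and made up most of the list's level there. The summed level of the list was 1.45 to 2.28 FPKM in the WT-labelled libraries and 14.8 to 17.0 FPKM in the KO-labelled ones, while *Cd79a*, *Ms4a1* and *Pax5* were at or under 0.0519 FPKM in every library. The part of these cells in the *Irf4* level was not tested.

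**Figure D2:**
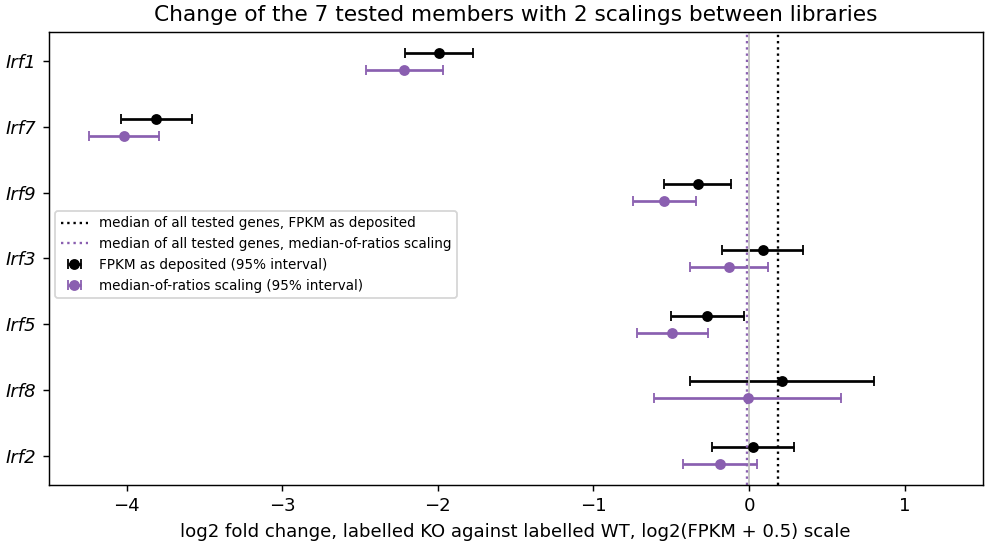
Log2 fold change of the 7 tested IRF genes (labelled KO against labelled WT, points) with 95% intervals (bars), for the FPKM as deposited (black) and after median-of-ratios scaling (purple), with the median of all tested genes as dotted lines. The second scaling moved the median of all genes from 0.19 to -0.01 and every IRF gene to the left, *Irf7* from -3.81 to -4.01 and *Irf5* from -0.27 to -0.49, so *Irf3*, *Irf8* and *Irf2* changed sign.

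The FPKM of the 2 groups were compared as deposited, and 72.0% of the calls over all genes were then higher in the KO-labelled libraries, against 47.7% with median-of-ratios scaling. Measured from the median of all genes, the falls of *Irf1*, *Irf7* and *Irf9* were larger than they appear from 0. *Irf1* and *Irf7* were called with every scaling tried, while *Irf9* missed the threshold after rescaling to TPM (adjusted p = 0.0745, limma).

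The order of the IRF transcripts by level was different under the 2 labels. In the WT-labelled libraries, *Irf1* was highest, followed by *Irf7*, *Irf5*, *Irf8*, *Irf9*, *Irf3*, *Irf2* and *Irf4*, and the ranges of *Irf9* and *Irf3* overlapped while all other neighbours were apart. In those labelled KO, *Irf5* led, followed by *Irf8*, *Irf1*, *Irf3*, *Irf9*, *Irf2*, *Irf7* and *Irf4*, and the ranges of *Irf8* and *Irf1* and those of *Irf9* and *Irf2* overlapped. *Irf7* moved from the second to the seventh place. The summed level of the 8 transcripts was 161 ± 2.74 FPKM in the WT-labelled libraries and 81.0 ± 5.34 FPKM in the KO-labelled ones (SD, n = 3 each). Of this sum, *Irf7* made up 25.7% ± 0.844 and 3.10% ± 0.494, and *Irf1* 29.6% ± 2.72 and 14.3% ± 0.417. The share of *Irf5* was 23.0% ± 1.93 in the WT-labelled libraries and 37.9% ± 1.61 in the KO-labelled ones, although its own level was no higher there.

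Each inducible gene was also divided by each constitutive gene within the same library, as log2 of (FPKM + 0.5), where the scaling between libraries enters only through the added 0.5. *Irf7* over *Irf3* was at 2.19, 2.46 and 2.35 in WT replicates 1, 2 and 3 and at -1.64, -1.48 and -1.57 in KO replicates 1, 2 and 3. *Irf7* thus exceeded *Irf3* in every WT-labelled library and was below it in every KO-labelled library, and the mean log2 ratio differed by -3.90. *Irf7* over *Irf5* differed by -3.54 and *Irf7* over *Irf8* by -4.02. *Irf1* over *Irf3* differed by -2.08, *Irf1* over *Irf5* by -1.72 and *Irf1* over *Irf8* by -2.20. *Irf1* was above *Irf5* in all 3 WT-labelled libraries (log2 ratios of 0.17 to 0.64) and below it in all 3 labelled KO (-1.42 to -1.32). *Irf9* over *Irf3* differed by -0.42 and *Irf9* over *Irf8* by -0.54, a value that was -0.21 without KO replicate 3. In these 8 pairs the groups did not overlap, and the exact permutation test gave p = 0.1 (two-sided), the smallest p that 3 against 3 libraries allow, or 0.1125 after Benjamini-Hochberg adjustment over the 9 pairs. *Irf9* over *Irf5* differed by only -0.06, with overlapping groups (exact permutation p = 0.6). The design cannot reach p under 0.05 with this test, and the pairs share genes.

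**Figure D3:**
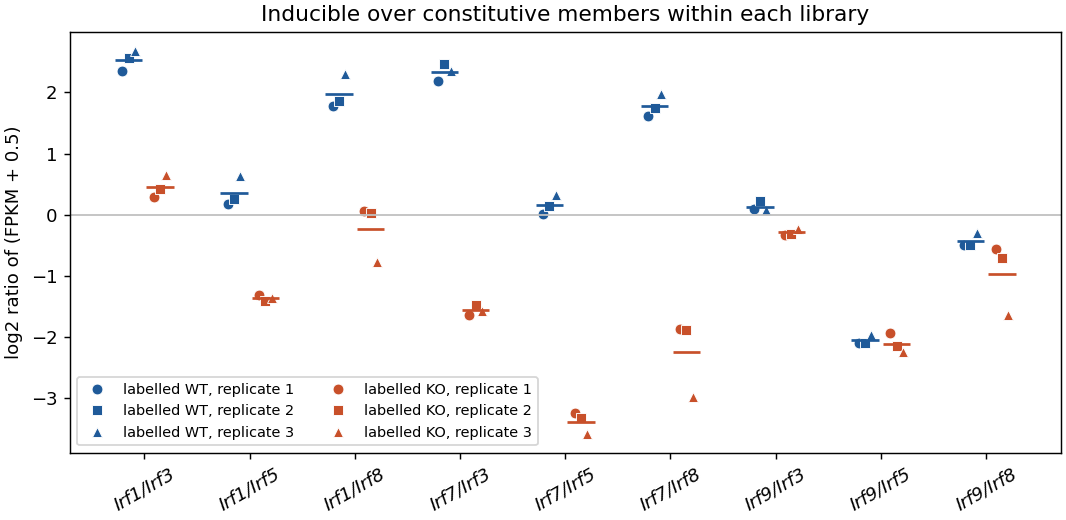
Log2 ratio of each inducible IRF gene to each constitutive one, from (FPKM + 0.5) within each library, with labelled WT in blue, labelled KO in red and a line at the group mean. The groups are apart in 8 of 9 pairs and overlap for *Irf9* over *Irf5*, and KO replicate 3 lies lowest in the 3 pairs with *Irf8*.

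By the root mean square difference of log2(FPKM + 0.5), each gene centred on its mean over the 6 libraries, the patterns most like that of *Irf7* were those of *Iigp1* (0.094), *Tarm1* (0.103) and *Ifit3b* (0.117). *Iigp1* was at 8.37 to 8.49 FPKM in the WT-labelled libraries and at 0.0564 to 0.138 FPKM in the KO-labelled ones. *Tarm1* had means of 9.58 FPKM under the label WT and 0.173 FPKM under KO. Both passed the filter only through the WT-labelled libraries. In FPKM both fell by a larger factor than *Irf7* (16.6-fold), so their likeness rests on the added 0.5, which understates the change of low genes. *Irf2* was followed most closely by *Eftud2* (0.016), *Ing5* (0.027) and *Prrc1* (0.028), all with the same dip in replicate 3. Nearest to *Irf8* were *B3galnt2* (0.101), *Tmsb15l* (0.118) and *Dus4l* (0.120). *Tmsb15l*, with means of 0.372 FPKM under the label WT and 0.688 FPKM under KO, passed the filter only through the KO-labelled libraries. *B3galnt2* was at 3.17 FPKM in KO replicate 3 and at 1.09 to 1.90 FPKM in the other 5 libraries, and so shared its high library with *Irf8*.

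Of 13 tested genes of proteins that work with IRFs, 2 fell and 4 rose, beside 10.5% lower and 27.1% higher over all tested genes, and the median log2 fold change was 0.13 beside 0.19 over all tested genes. The counts of partners are thus near the background, and the same shares stand beside the counts of the lists that follow. A gene that passed the filter only through the group where it is high had to differ, so such genes are named with each list. *Stat2*, which encodes a signal transducer that binds IRF9 in ISGF3, was among those that fell. It was at 37.1, 41.2 and 20.6 FPKM in WT replicates 1, 2 and 3 and at 4.85, 5.01 and 3.87 FPKM in KO replicates 1, 2 and 3, a 7.20-fold difference (adjusted p = 0.000394, limma). *Stat2* and *Irf9* therefore fell by unequal amounts, with log2 fold changes of -2.67 and -0.33. The largest rise was that of *Batf3*, a partner of IRF4 and IRF8 at composite elements, from 0.338 ± 0.262 to 1.25 ± 0.145 FPKM (SD, n = 3 each, adjusted p = 0.0136, limma), but *Batf3* passed the filter only through the KO-labelled libraries, as *Batf2* did through the WT-labelled ones, and without both 3 partners rose. *Batf*, *Tcf3* and *Irf2bp2* rose too, and 2 of the 4 rises were called with median-of-ratios scaling and 2 without KO replicate 2. *Spi1*, which encodes the IRF8 partner PU.1, was at 94.8 ± 6.26 and 101 ± 10.1 FPKM and differed by 0.09 on the log2 scale (adjusted p = 0.512, limma), and *Irf2bp1* and *Irf2bpl* were not called either. *Spib* was listed at 0 in all 6 libraries.

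Adaptors and kinases that activate IRFs differed little. Of the 14 listed, 13 were found and tested, 1 fell and 4 rose, near the 10.5% and 27.1% of all tested genes, with a median log2 fold change of 0.05. *Slc15a4*, an endolysosomal transporter needed for IRF5 activation below Toll-like receptors, rose from 5.83 ± 0.646 to 9.94 ± 1.49 FPKM (SD, n = 3 each), or by 0.72 on the log2 scale (adjusted p = 0.00702, limma). *Irak4*, *Ikbke* and *Mavs* rose by 0.40 to 0.43 on the log2 scale. With median-of-ratios scaling 1 gene was higher and 4 were lower. The 1 fall was that of *Myd88*, the adaptor of most Toll-like receptors, by 0.40 on the log2 scale (adjusted p = 0.0208, limma). No gene of the list was called lower without WT replicate 1, without KO replicate 1 or without KO replicate 2. *Tbk1*, the kinase of IRF3 and IRF7, was at 24.8, 27.3 and 29.8 FPKM in WT replicates 1, 2 and 3 and at 19.8, 21.3 and 23.9 FPKM in KO replicates 1, 2 and 3. Its groups did not overlap, and their log2 fold change of -0.33 missed the threshold (adjusted p = 0.0514, limma). *Chuk* and *Irak1* were not called.

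Of 9 negative regulators of IRF or interferon signalling, 5 fell and 1 rose, beside 10.5% and 27.1% of all tested genes, with a median log2 fold change of -1.001. All 9 were above the filter's level in both groups. *Usp18*, which removes ISG15 from proteins and blocks the interferon receptor, fell from 31.6 ± 2.35 to 1.05 ± 0.161 FPKM (SD, n = 3 each), a 30.1-fold difference (adjusted p = 1.86e-06, limma). *Socs1*, an inhibitor of JAK kinases, fell 8.92-fold and *Trim30a* 3.92-fold (adjusted p = 1.38e-05 and 1.33e-05, limma). *Trim21* fell 2.13-fold and *Tnfaip3* 2.21-fold. *Rbck1* rose by 0.41 on the log2 scale, a call that was lost with median-of-ratios scaling. *Otud5* and *Lyn* were not called, with log2 fold changes of 0.23 and 0.09. The genes that fell in this list are themselves mostly interferon-inducible.

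Genes known as targets of IRF3 and IRF7 fell in 7 of 7 tested cases, with a median log2 fold change of -5.49, and in 6 of 6 without *Cxcl10*, which passed the filter only through the WT-labelled libraries. *Rsad2*, which encodes the antiviral enzyme viperin, was at 113, 114 and 106 FPKM in WT replicates 1, 2 and 3 and at 1.39, 1.53 and 1.81 FPKM in KO replicates 1, 2 and 3, a 70.5-fold difference (adjusted p = 5.10e-07, limma). *Ifit1* and *Ifit2*, which encode antiviral RNA-binding proteins, fell 63.6-fold and 59.3-fold (adjusted p = 6.20e-06 and 4.41e-07, limma). The interferon genes of the list, *Ifnb1* and *Ifna4*, were listed at 0 in 5 of 6 libraries and at 0.0740 and 0.0847 FPKM in WT replicate 3, so the large differences lay in the responding genes, while the interferon transcripts were too low to be compared.

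Known ISGF3 targets fell in 9 of 9 tested cases, with a median log2 fold change of -2.96, and in 7 of 7 (median -2.67) without *Mx2* and *Ifi44*, which passed the filter only through the WT-labelled libraries. *Mx1*, a GTPase that traps viral particles, fell 45.5-fold from 27.2 ± 1.26 to 0.597 ± 0.0978 FPKM (SD, n = 3 each, adjusted p = 1.36e-06, limma). *Oas3*, which senses double-stranded RNA, fell 14.4-fold and *Ifi44* 28.7-fold (adjusted p = 2.34e-05 and 1.28e-05, limma). The smallest fall of the list was that of *Eif2ak2*, the kinase PKR, at -1.58 on the log2 scale, which was still a larger change than that of *Irf9*.

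**Figure D4:**
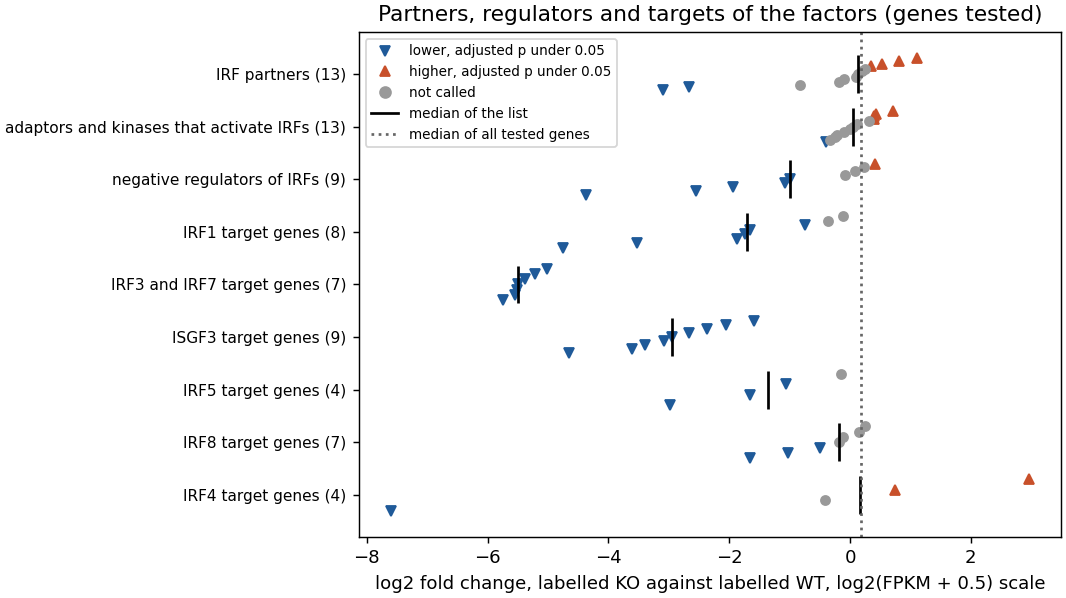
Log2 fold change (labelled KO against labelled WT) of each tested gene in the 9 lists of partners, regulators and targets, with triangles for genes called lower (blue) or higher (red), grey points for genes not called, a black line at the list median and a dotted line at 0.19, the median of all tested genes. The IRF3 and IRF7 targets lie between -5.75 and -5.01, the ISGF3 targets between -4.66 and -1.58, and the partners and the adaptors mostly around the dotted line.

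Targets of IRF1 fell in 6 of 8 tested cases, with a median log2 fold change of -1.70, and in 4 of 6 (median -1.24) without *Nos2* and *Il12b*, which passed the filter only through the WT-labelled libraries. *Gbp2*, an interferon-gamma-induced GTPase, was at 158, 153 and 166 FPKM in WT replicates 1, 2 and 3 and at 4.88, 4.81 and 6.76 FPKM in KO replicates 1, 2 and 3, a 29.0-fold difference (adjusted p = 2.38e-06, limma). *Nos2*, which encodes inducible nitric oxide synthase, was at 3.94 to 6.86 FPKM in the WT-labelled libraries and was listed at 0 in 2 of the 3 KO-labelled libraries and at 0.0444 FPKM in the other. *Tap1*, the peptide transporter of antigen presentation, fell 3.89-fold (adjusted p = 0.000348, limma), and the immunoproteasome genes *Psmb8* and *Psmb9* fell by 1.74 and 0.75 on the log2 scale. *Il27* and *Casp1* were not called, with log2 fold changes of -0.36 and -0.11.

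Of 4 tested targets of IRF5, 3 fell, with a median log2 fold change of -1.36. Without *Il6* and *Il12b*, which passed the filter only through the WT-labelled libraries, 1 of 2 fell (median -0.61). *Il6* was at 4.17, 5.12 and 3.92 FPKM in WT replicates 1, 2 and 3 and at 0.0934, 0.0756 and 0.193 FPKM in KO replicates 1, 2 and 3, a 36.5-fold difference (adjusted p = 2.06e-05, limma). *Tnf* fell 2.17-fold (adjusted p = 0.000510, limma), and *Ccl3* was not called (log2 fold change -0.15). *Il12b*, the p40 subunit of interleukin-12 that stands in the IRF1, IRF5 and IRF8 lists alike, was at 0.952, 1.02 and 1.28 FPKM in WT replicates 1, 2 and 3 and was listed at 0 in all 3 KO-labelled libraries (adjusted p = 0.000304, limma). *Tnf*, the 1 fall left without *Il6* and *Il12b*, differed by -1.06 on the log2 scale, beside -0.27 for the *Irf5* transcript. *Il6*, which had to differ, was lower by 2.98 on that scale.

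Of 7 tested targets of IRF8, 3 fell and none rose, with a median log2 fold change of -0.18, and 2 of 6 fell without *Il12b*. With no filter, or with a mean of 1 FPKM as the minimum, 2 genes of the list were called lower. *Cybb*, the catalytic subunit of the phagocyte NADPH oxidase, was at 216, 226 and 159 FPKM in WT replicates 1, 2 and 3 and at 103, 105 and 84.9 FPKM in KO replicates 1, 2 and 3, a 2.05-fold difference (adjusted p = 0.00295, limma). *Ctss*, a lysosomal protease, fell 1.43-fold (adjusted p = 0.0438, limma). *Slc11a1* and *Cst3* were not called, with log2 fold changes of -0.18 and 0.25, and the high *Irf8* value of KO replicate 3 had no counterpart in *Cybb*, which was lowest in that library. Without WT replicate 3, 1 gene of this list was called higher, and 5 were called lower with median-of-ratios scaling.

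Genes known as targets of IRF4 in alternatively activated macrophages showed 1 fall and 2 rises among 4 tested genes, with a median log2 fold change of 0.17. The gene that fell, *Arg1*, passed the filter only through the WT-labelled libraries. Without it, 0 of 3 fell and 2 rose (median 0.74). *Arg1*, which encodes arginase, was at 166, 158 and 176 FPKM in WT replicates 1, 2 and 3 and at 0.329, 0.409 and 0.338 FPKM in KO replicates 1, 2 and 3, a 464-fold difference (adjusted p = 9.18e-08, limma). *Mrc1*, the mannose receptor, rose from 28.0 ± 1.60 to 221 ± 6.46 FPKM (SD, n = 3 each, adjusted p = 2.08e-06, limma), and *Chil3* rose by 0.74 on the log2 scale (adjusted p = 0.00168, limma). *Prdm1* lay at the threshold at -0.41 on the log2 scale (adjusted p = 0.0501, limma) and was called lower with 8 of the 17 alternative settings, leaving out WT replicate 3 among them, which made 2 falls.

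Tested markers of other cells rose with the label KO, beside 27.1% of all tested genes, while *Irf1*, *Irf7* and *Irf9* fell. Of these markers, *Cd177*, *Cxcr2* and *Ighm* passed the filter only through the KO-labelled libraries. *Ngp*, *Ltf* and *Camp* led the neutrophil list with log2 fold changes of 3.02, 3.09 and 1.78. Of the dendritic cell list only *Itgax*, which macrophages also express, was tested, and it rose by 0.75 on the log2 scale. *Flt3* was listed at 0 in all 6 libraries, and among the markers under the filter the mean ran the other way for *Clec9a* (0.541 FPKM under the label WT and 0.0526 under KO), *Xcr1* (0.271 and 0.0757), *Ccr7* (0.0834 and listed at 0) and the neutrophil gene *Elane* (0.317 and 0.138). Of the T and NK cell list only *Cd4* was tested, which rose by 1.43 on the log2 scale, with *Cd3d* at 0 in all 6 libraries. In the macrophage list 2 of 8 genes rose, near the 27.1% of all tested genes, and *Fcgr1* fell by 1.83 on the log2 scale. The part of these markers in the levels of the IRF genes was not tested.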

How the data were processed

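RNA-seq of 6 libraries of Ly6G-negative BMDMs was used, 3 labelled WT and 3 labelled KO. The authors deposited FPKM per gene. The submitters' processing notes name fastp 0.17.1, HISAT2 2.1.0, DESeq2 1.18.1 and R 3.4.3; the quantifier, annotation and build are not given in the sources used here. Extraction reagent, library kit and sequencer are given differently in the labels and in the methods. Of 55335 identifiers, 55154 (99.7%) matched GENCODE M21 (GRCm38), the source of symbols and positions. All columns matched a sample title.

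The 13367 genes averaging 0.5 FPKM or more entered a limma 3.58.1 fit (R 4.3.3) of log2(FPKM + 0.5) (lmFit and trended eBayes, two-sided, no covariates), with Benjamini-Hochberg adjustment over all of them. Within-library ratios were compared by an exact permutation test. In a test on simulated libraries, 122 of 200 genes changed by 1 on the log2 scale were recovered (61%) among 13367, with 10 false calls. FPKM carry no counts. In 34186 genes with 1 transcript, 39.9% to 43.5% of low values were whole multiples of 1 step to within 0.1 (20% if spread evenly), so whole reads were not recovered. If that step stood for 1 fragment, the depth would be 1.77e+07 to 2.03e+07 fragments, which this check did not establish.

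The IRF genes and all lists were chosen with earlier results of these data known, so they are no independent support. Named are the IRF genes, *Cd177*, for each list the 3 largest changes and up to 3 uncalled genes of highest mean FPKM, and the 3 genes most like *Irf7*, *Irf8* and *Irf2*. Other list members and overlapping genes were named after their values were seen. Some list members are counted but not reported by name here. *Sting1* was matched through an older symbol, and 1 listed adaptor had no match. Alternatives covered pseudocounts, filters, 4 scalings, a robust variance, the replicate number as a block and each library left out. Leaving out replicate 3 of both groups was added after seeing the data. Python 3.11.15 with pandas 2.3.3, scipy 1.17.1 and matplotlib 3.10.9 did the rest.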

Additional observations from a re-analysis of the deposited data

How the results depend on the processing

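The calls of *Irf1* and *Irf7* as lower, and their passing of the study's threshold, held with each of the 17 alternatives. The log2 fold change ranged from -2.03 to -1.92 for *Irf1* and from -3.87 to -3.73 for *Irf7* when 1 library was left out (-3.72 without replicate 3 of both groups). *Irf9* lost its call after rescaling to TPM (-0.33) and without any 1 library other than WT replicate 3, with log2 fold changes of -0.36 to -0.29. *Irf5* gained a call with median-of-ratios (-0.49) and upper-quartile scaling (-0.35), and ranged from -0.34 to -0.21 with 1 library left out, against -0.36 without replicate 3 of both groups. The number of IRF genes called lower was thus 2 to 4 with 1 library left out, and 4 without replicate 3 of both groups. Median-of-ratios scaling gave 2259 genes lower and 2057 higher over all genes, against 1408 and 3619 as deposited, and 5 genes higher in the 9 lists. The difference in the log2 ratio of *Irf7* to *Irf3* was -4.09 with a pseudocount of 0.1, -3.68 with 1 and -4.15 with none, and that of *Irf7* to *Irf5* was -3.73, -3.34 and -3.79. Between these ratio values only the added constant was changed, and *Irf7* was at 2.19 to 2.74 FPKM in the KO-labelled libraries. The cause of the shift with median-of-ratios scaling was not tested. The difference of *Irf9* to *Irf8* ranged from -0.75 to -0.21, the last without KO replicate 3. Of the counts per list, 25 moved by more than 1.5 times and 281 did not.

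The replicate numbers are shared by both groups, but the deviations of same-numbered libraries correlated at 0.116, 0.036 and 0.264, so the numbers were not taken to pair them. With the replicate number as a block, 1681 genes were lower and 4253 higher, and 3 IRF genes were lower with *Irf9* at an adjusted p of 0.0212 (limma). KO replicate 1 correlated best with WT replicate 2 (0.121), KO replicate 2 with WT replicate 1 (0.16) and KO replicate 3 with WT replicate 3. The depth of these FPKM is not known from counts, which limits *Irf4*, *Ifnb1* and *Ifna4* in particular.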
